A study of Mus musculus with 11 samples.

Results

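The BMP and TGF-beta pathway was followed through 44 of its genes, which were taken as a list of ligands, extracellular inhibitors, latency proteins, receptors, SMADs and Id target genes, matched to 1 Ensembl gene each among the 55536 genes counted. All 44 were among the 20307 genes with enough counts to be tested. RNA had been sequenced from 4 groups of cells sorted from the dorsal skin epidermis (EBS) of adult male CD4Cre R26-tdT mice on a C57Bl6/N background. In these mice a Cre recombinase driven by *Cd4* regulatory sequences switches on the red fluorescent protein tdTomato (tdT), so that tdT+ cells are those in which Cre was once active or their descendants, T cells included, and tdTneg cells are not labelled. All 4 groups shared this genotype, so the tdTneg cells came from the same kind of animal and not from a Cre-free control.

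The groups were tdT+ and tdTneg CD49f+CD34+ cells without SCA-1, the hair follicle bulge gate, referred to here as CD34+ bulge cells (3 libraries each), and tdT+ and tdTneg CD49f+CD34+SCA-1+ cells, referred to as CD34+SCA-1+ cells (3 and 2 libraries). Among keratinocytes, CD49f is the integrin of basal cells, CD34 marks bulge stem cells, and SCA-1 marks infundibulum and basal interfollicular epidermis. Markers of other cells in these libraries are given below. Each library pooled the cells of 2 mice, aged 29 weeks for replicate 1 and 32 weeks for replicates 2 and 3. The libraries held from 17409131 to 46542177 counts over genes, and levels are given as normalized CPM, the share of a library's counts scaled by edgeR's TMM method. Values of a group are listed in the order of its replicates. All 11 libraries were fitted together with edgeR's quasi-likelihood test, and a gene was called where its p-value, adjusted by Benjamini-Hochberg over all genes tested, was under 0.05 and its log2 fold change was over 1 in size.

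BMPs and TGF-betas are secreted ligands that bind pairs of type I and type II receptor kinases, which phosphorylate receptor-regulated SMADs that then enter the nucleus with the common partner SMAD4. The Id genes, which encode inhibitors of basic helix-loop-helix transcription factors, are classical direct targets of BMP signalling, and noggin, gremlin and follistatin hold ligands away from their receptors. In the resting hair follicle BMP signalling keeps bulge stem cells quiescent, and TGF-beta, stored in the matrix in a latent form bound to LTBP proteins, takes part in the start of hair growth.

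The sort markers were checked first. *Ly6a*, which encodes SCA-1, lay at 153 to 294 normalized CPM in the 5 CD34+SCA-1+ libraries and at 2.46 to 59.2 in the 6 CD34+ bulge libraries, without overlap. *Cd34* lay at 467 to 1129 in bulge cells and at 319 and 382 in tdTneg CD34+SCA-1+ cells, but at only 24.2, 35.6 and 22.3 in tdT+ CD34+SCA-1+ cells, where its transcript went against the gate. The tdTneg CD34+SCA-1+ libraries carried endothelial genes, with *Pecam1* at 687 and 727 against 13.3, 32.9 and 25.3 in tdT+ CD34+SCA-1+ cells, while T cell genes such as *Cd3e* lay at 47.01, 117 and 95.4 in tdT+ and 9.77 and 12.6 in tdTneg CD34+SCA-1+ cells. Among bulge libraries the one labelled tdT+ CD34+ replicate 2 stood apart, with *Pecam1* at 175 against 1.05 to 19.6 in the other 5, and in a count row that is not an Ensembl gene it held 2.05 CPM, where the other 5 tdT+ libraries held 133 to 307 and the tdTneg libraries 2.54 to 4.89. The counts of called genes among the 44 in the comparisons that include this library are also given without it. The libraries of 1 group were taken as pools of different mice, so that p-values refer to the spread between such pools.

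The comparison of CD34+SCA-1+ with CD34+ bulge cells, averaged over tdT status, asks how the pathway differs between the SCA-1+ and the bulge compartment. Most of the differences pointed to bulge cells, which held more of the 4 Id genes, of the inhibitors *Grem1*, *Nog* and *Fst*, of 3 of 4 latent TGF-beta binding proteins and of *Smad9*, while CD34+SCA-1+ cells held more *Bmp4*, *Smad3*, *Tgfbr2* and *Tgfbr3*. In all, 20 of the 44 genes were called, beside 11.6% of all genes tested. Of these, 4 were higher in CD34+SCA-1+ cells, beside 4.77% of all genes, and 16 were lower, beside 6.79% of all genes. The median log2 fold change was -0.39 over the 44 genes and -0.09 over all genes. In 14 of the 44 genes the libraries of the 2 populations did not overlap, beside 10.8% of all genes. Markers of other cells moved with the comparison as well. Of 7 T cell markers 6 were called higher in CD34+SCA-1+ cells, with summed levels of 134 to 939 normalized CPM against 19.6 to 69.6 in bulge libraries. Of 6 markers of Langerhans cells and other leukocytes 4 were called higher, with sums of 409 to 962 against 12.01 to 501, and of 5 suprabasal markers 3, with sums of 3003 to 9834 against 482 to 4028. All 8 bulge markers were called lower, with sums of 3350 to 5428 against 8372 to 15702. Of 6 markers of basal cells of the interfollicular epidermis and infundibulum 3 were called higher, *Ly6a* of the sort among them, with sums of 22439 to 37448 against 16229 to 24315. Of 5 melanocyte markers 2 were called lower, with sums of 7.48 to 38.7 against 31.4 to 68.0, and of 5 sebaceous gland markers 1, with sums of 405 to 612 against 395 to 2220.5. Of 5 dermal papilla markers *Rspo3* was called higher and *Hhip* lower, with sums of 10.2 to 65.1 against 11.6 to 36.5, and none of the fibroblast or endothelial markers was called. The part of these cells in the results was not tested. In such bulk samples fewer cells of a type and less RNA per cell cannot be told apart.

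**Figure D1:**
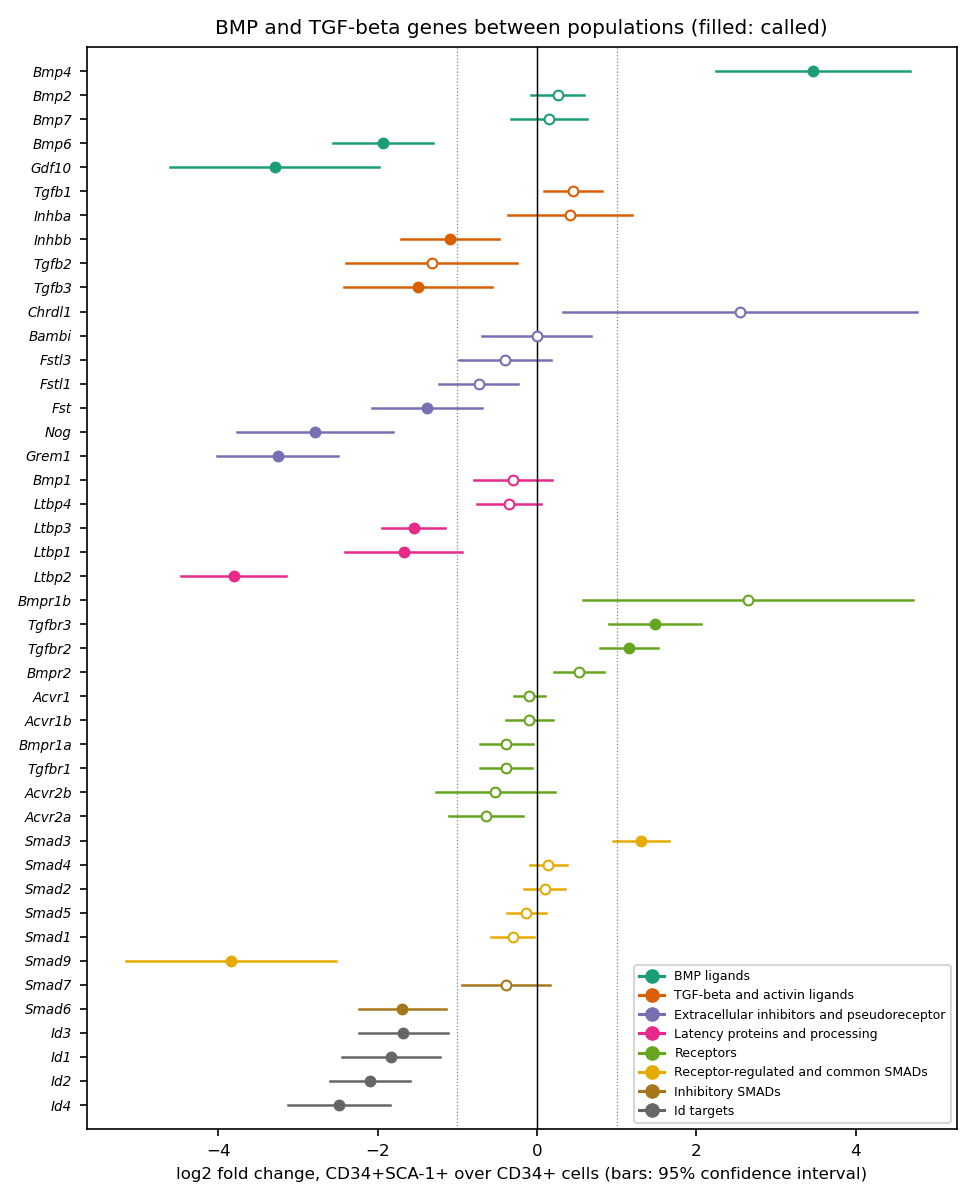
Log2 fold change of each of the 44 genes between CD34+SCA-1+ and CD34+ cells (mean over tdT status, edgeR), with 95% confidence intervals, coloured by role; filled points were called and dotted lines mark a log2 fold change of 1 in each direction. All 4 Id genes lie left of -1, whereas most receptors and SMADs lie between the dotted lines.

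Among the 5 BMP ligands, 1 rose and 2 fell. *Bmp4*, which encodes a ligand of epidermal and mesenchymal BMP signalling, had 5.34, 17.2 and 2.04 normalized CPM in tdT+ and 3.72, 2.01 and 1.22 in tdTneg bulge cells, against 56.8, 22.7 and 41.04 in tdT+ and 75.2 and 39.2 in tdTneg CD34+SCA-1+ cells. All 5 CD34+SCA-1+ libraries lay above all 6 bulge libraries, the highest of which was the library labelled tdT+ CD34+ replicate 2. The fitted fold, which averages tdT+ and tdTneg cells on the log scale, was 10.99 (log2 fold change 3.46, standard error 0.55, edgeR adjusted p = 0.0022).

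*Bmp6*, a BMP ligand of bulge cells and the outer root sheath, had 31.3, 41.6 and 77.9 in tdT+ and 39.3, 38.7 and 55.9 in tdTneg bulge cells, against 3.67, 3.63 and 6.91 in tdT+ and 33.6 and 31.5 in tdTneg CD34+SCA-1+ cells. The low values were those of the 3 tdT+ CD34+SCA-1+ libraries, whereas both tdTneg CD34+SCA-1+ libraries were near the lowest bulge libraries. The mean over tdT status fell by 1.93 on the log2 scale (adjusted p = 0.00152). *Gdf10*, the gene of a divergent family member also known as BMP3b, had 33.9, 5.94 and 12.99 in tdT+ and 72.9, 56.7 and 46.3 in tdTneg bulge cells, against 1.17, 3.12 and 0.464 in tdT+ and 9.26 and 4.52 in tdTneg CD34+SCA-1+ cells. The CD34+SCA-1+ values were the lower ones within each tdT status, and the only overlap was between tdT+ bulge replicate 2 and a tdTneg CD34+SCA-1+ library, and the log2 fold change was -3.29 (standard error 0.59, adjusted p = 0.00421).

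The other 2 BMP ligands did not pass the test. *Bmp2* lay at 26.9 to 39.2 in bulge and 24.9 to 48.8 in CD34+SCA-1+ libraries (log2 fold change 0.26, 95% interval -0.07 to 0.59), and *Bmp7* at 45.04 to 128 and 64.2 to 88.1 (0.15, -0.32 to 0.63). Per kilobase of exon, the mean levels over both tdT groups of bulge cells were 17.1 CPM per kb for *Bmp7*, 12.2 for *Bmp6*, 9.28 for *Bmp2*, 7.32 for *Gdf10* and 2.34 for *Bmp4*. *Gdf10* held no fixed place in this order, with 11.3 CPM per kb in tdTneg and 3.38 in tdT+ bulge cells, against 9.53 for *Bmp2* in tdTneg and 3.65 for *Bmp4* in tdT+ bulge cells. The order of *Gdf10* and *Bmp4* in tdT+ bulge cells rested on the library labelled tdT+ CD34+ replicate 2. There *Bmp4* was highest (17.2 normalized CPM) and *Gdf10* lowest (5.94). In CD34+SCA-1+ cells *Bmp4* had the highest mean over both tdT groups on this scale, with 20.9 CPM per kb, followed by *Bmp7* with 18.6, *Bmp2* with 11.7, *Bmp6* with 4.07 and *Gdf10* with 0.712. By tdT status, *Bmp7* was above *Bmp4* in tdT+ cells (19.5 against 17.9) and below it in tdTneg cells (17.3 against 25.4). Over the CD34+SCA-1+ libraries the per-kilobase levels of *Bmp4* and *Bmp7* overlapped, so these 2 neighbours in the order did not differ beyond their spread.

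Of the 5 TGF-beta and activin ligands, 2 fell and none rose. *Tgfb3*, 1 of the 3 TGF-beta genes, had 36.99, 16.4 and 86.1 normalized CPM in tdT+ and 43.99, 39.6 and 55.5 in tdTneg bulge cells, against 7.99, 19.1 and 16.1 in tdT+ and 13.3 and 24.9 in tdTneg CD34+SCA-1+ cells. Bulge values were the higher ones except in tdT+ bulge replicate 2, which lay among the CD34+SCA-1+ values, and the log2 fold change was -1.49 (adjusted p = 0.0339). The call was lost, with adjusted p-values from 0.0514 to 0.168, when tdTneg bulge replicate 1 or 3, tdT+ CD34+SCA-1+ replicate 1 or 3, or either tdTneg CD34+SCA-1+ library was omitted. Of the exon bases of *Tgfb3*, 12.4% are shared with genes on the opposite strand, which the library kit does not separate.

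*Inhbb*, which encodes the beta B subunit of activins and inhibins, had 90.5, 48.7 and 52.2 in tdT+ and 153, 154 and 93.5 in tdTneg bulge cells, against 25.2, 33.01 and 15.3 in tdT+ and 54.8 and 98.9 in tdTneg CD34+SCA-1+ cells. Each tdT+ library lay below each tdTneg library of its population, and the populations overlapped. The log2 fold change of -1.09 (adjusted p = 0.0217) was close to the fold threshold, and its size was under that threshold without tdT+ bulge replicate 1 (-0.92), tdT+ CD34+SCA-1+ replicate 3 (-0.97) or tdTneg CD34+SCA-1+ replicate 1 (-0.91). *Tgfb2* spread widely, with 56.6, 16.2 and 121 in tdT+ and 34.8, 15.02 and 39.6 in tdTneg bulge cells against 9.53, 9.64 and 19.7 in tdT+ and 20.5 and 27.4 in tdTneg CD34+SCA-1+ cells. It did not pass the test over both tdT groups (log2 fold change -1.32, adjusted p = 0.0819). *Tgfb1* and *Inhba*, the gene of the beta A activin subunit, had log2 fold changes of 0.45 (95% interval 0.09 to 0.81) and 0.42.

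Of the 7 inhibitors, 6 secreted ones and the pseudoreceptor gene *Bambi*, 3 fell and none rose. *Grem1* (gremlin, a BMP antagonist) had 309, 389 and 754 normalized CPM in tdT+ and 529, 346 and 711 in tdTneg bulge cells, against 17.1, 29.04 and 26.7 in tdT+ and 80.4 and 151 in tdTneg CD34+SCA-1+ cells. The 4 groups formed 3 levels, with the tdTneg CD34+SCA-1+ libraries between the tdT+ ones and the bulge. The fitted fold, averaged over tdT status on the log scale, was 9.54 (log2 fold change -3.25, standard error 0.34, adjusted p = 0.000331).

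*Nog* (noggin, which binds BMPs directly) had 16.3, 29.8 and 49.3 in tdT+ and 44.5, 21.6 and 55.7 in tdTneg bulge cells, against 2.18, 1.99 and 5.67 in tdT+ and 6.10 and 10.4 in tdTneg CD34+SCA-1+ cells. Bulge libraries were all above CD34+SCA-1+ libraries, and the log2 fold change was -2.79 (adjusted p = 0.00217). *Fst* (follistatin, which binds activins and some BMPs) had 357, 386 and 812 in tdT+ and 452, 283 and 549 in tdTneg bulge cells, against 119, 117 and 240.3 in tdT+ and 178 and 235 in tdTneg CD34+SCA-1+ cells. Its libraries did not overlap either, with a log2 fold change of -1.38 (adjusted p = 0.0127), and the call was lost without tdTneg CD34+SCA-1+ replicate 1 (-1.29, adjusted p = 0.0793).

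The remaining inhibitors were not called between populations. *Fstl1*, a secreted follistatin-like glycoprotein, differed by less than the fold threshold (log2 fold change -0.73, adjusted p = 0.0463), and its values by tdT status are given with that comparison. *Fstl3*, of which 47.3% of exon bases are shared with *Prss57* on the opposite strand, lay at 6.75 to 19.6 in bulge and 9.54 to 16.96 in CD34+SCA-1+ libraries, and *Bambi*, a decoy receptor without kinase activity, at 8.13 to 13.5 and 4.23 to 15.3. *Chrdl1* (chordin-like 1) was close to the limit of detection, at 0 to 4.14 over all libraries. Per kilobase of exon the inhibitors of bulge cells were led by *Grem1* and *Fst*, with 122 and 103 CPM per kb, against 21.3 for *Nog* and 13.04 for *Fstl1*.

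The 5 latency and processing genes had the lowest median of the ligand-side groups, a log2 fold change of -1.55, and 3 of them fell. *Ltbp2*, a matrix protein of the latent TGF-beta binding family, had 155, 342 and 260.4 normalized CPM in tdT+ and 315, 183 and 315 in tdTneg bulge cells, against 10.1, 5.50 and 6.60 in tdT+ and 39.2 and 55.2 in tdTneg CD34+SCA-1+ cells. As for *Grem1*, the tdTneg CD34+SCA-1+ libraries lay between the other groups without overlap. The fitted fold was 13.95 (log2 fold change -3.80, standard error 0.30, adjusted p = 0.000128), and 9.34% of its exon bases are shared with a gene on the opposite strand.

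*Ltbp3*, which aids secretion of latent TGF-beta, had 338, 329 and 468 in tdT+ and 649.5, 636 and 554 in tdTneg bulge cells, against 138, 97.2 and 147 in tdT+ and 165 and 262 in tdTneg CD34+SCA-1+ cells. Its bulge libraries lay above all others (log2 fold change -1.55, adjusted p = 0.000484). *Ltbp1*, which anchors latent TGF-beta in the matrix, had 72.1, 79.7 and 224 in tdT+ and 67.7, 63.7 and 105 in tdTneg bulge cells, against 18.9, 25.7 and 23.6 in tdT+ and 31.3 and 54.4 in tdTneg CD34+SCA-1+ cells. It also did not overlap (log2 fold change -1.67, adjusted p = 0.00704), but missed the threshold without tdTneg CD34+SCA-1+ replicate 1 (-1.50, adjusted p = 0.0512). *Ltbp4* and the procollagen and chordin protease gene *Bmp1* were not called, with log2 fold changes of -0.35 and -0.30. *Ltbp4* was the most abundant of the 5 per kilobase of exon in bulge cells, at 111 CPM per kb, followed by *Ltbp3* at 54.7 and *Ltbp2* at 31.99.

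**Figure D2:**
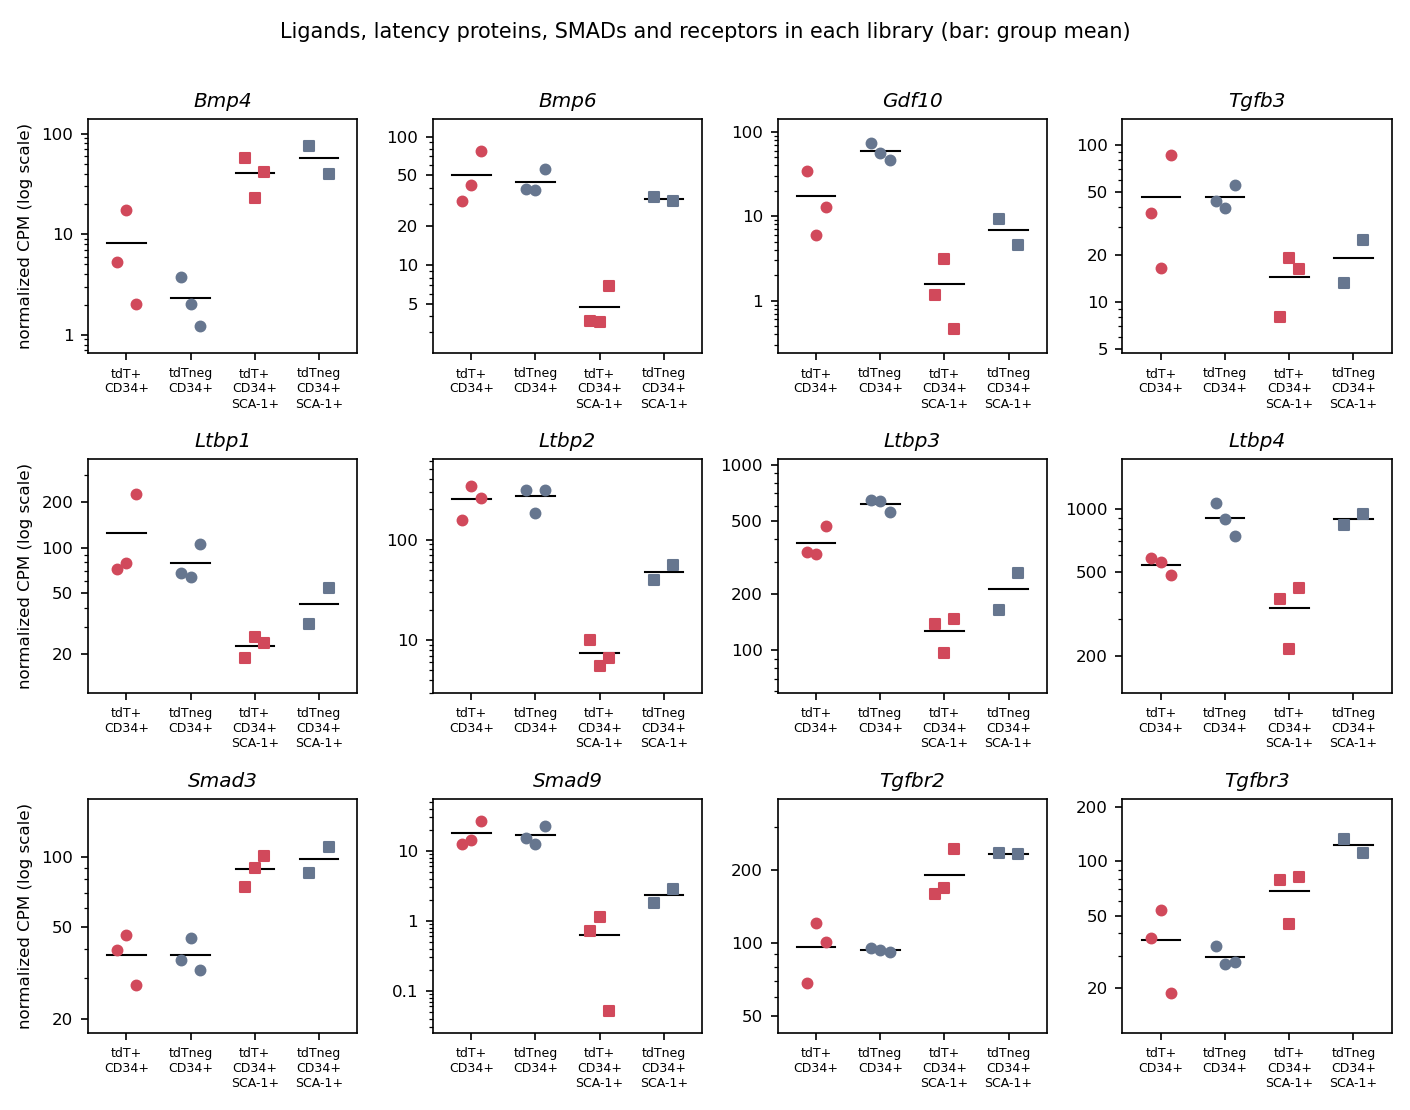
Normalized CPM (log axis) of 12 ligand, latency, SMAD and receptor genes in each of the 11 libraries, by group (red tdT+, blue-grey tdTneg; circles CD34+, squares CD34+SCA-1+; bar, group mean). *Ltbp2* and *Smad9* are highest in the 6 CD34+ libraries, and *Bmp4*, *Smad3* and *Tgfbr2* in the 5 CD34+SCA-1+ libraries.

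Of the 10 receptor genes 2 rose and none fell. *Tgfbr2*, which encodes the type II TGF-beta receptor, had 68.2, 120.5 and 101 normalized CPM in tdT+ and 95.2, 93.9 and 91.9 in tdTneg bulge cells, against 159.6, 169 and 246 in tdT+ and 235 and 233 in tdTneg CD34+SCA-1+ cells. The populations did not overlap (log2 fold change 1.15, standard error 0.16, adjusted p = 0.00123). *Tgfbr3*, which encodes the co-receptor betaglycan, had 37.6, 53.8 and 18.6 in tdT+ and 34.02, 26.9 and 27.7 in tdTneg bulge cells, against 78.98, 45.04 and 82.1 in tdT+ and 134 and 112 in tdTneg CD34+SCA-1+ cells. Its lowest CD34+SCA-1+ library, tdT+ replicate 2, lay below the library labelled tdT+ CD34+ replicate 2, and the log2 fold change was 1.48 (adjusted p = 0.00375). The summed level of 5 endothelial markers was 1525 and 1681 normalized CPM in tdTneg CD34+SCA-1+ cells, where *Tgfbr3* was highest, and 29.2 to 60.6 in tdT+ CD34+SCA-1+ cells. The part of endothelial RNA in *Tgfbr2* and *Tgfbr3* was not tested.

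*Bmpr2*, the type II BMP receptor gene, reached an adjusted p of 0.0296 with a log2 fold change of only 0.52. The type I receptor genes *Bmpr1a*, *Acvr1*, *Acvr1b* and *Tgfbr1* had log2 fold changes of -0.39, -0.09, -0.10 and -0.39, each with a 95% interval between -1 and 1. The activin type II receptor genes *Acvr2a* and *Acvr2b* had -0.64 (adjusted p = 0.0586) and -0.52 (adjusted p = 0.303). *Bmpr1b*, the other type I BMP receptor gene, held 0 to 1.23 normalized CPM in bulge and 0.251 to 4.03 in CD34+SCA-1+ libraries, so that *Bmpr1a*, with 28.9 against 0.0536 CPM per kb in bulge cells, was the far more abundant of the 2.

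Of the 6 receptor-regulated and common SMAD genes, 1 rose and 1 fell. *Smad3*, a transducer of TGF-beta and activin signals, had 39.5, 45.8 and 27.9 normalized CPM in tdT+ and 35.7, 44.6 and 32.5 in tdTneg bulge cells, against 74.1, 89.97 and 101 in tdT+ and 85.6 and 111 in tdTneg CD34+SCA-1+ cells. All 5 CD34+SCA-1+ libraries were above the bulge. The summed level of the 7 T cell markers was 364 to 939 normalized CPM in tdT+ and 134 to 143 in tdTneg CD34+SCA-1+ cells, against 19.6 to 69.6 in bulge cells, and its part in the result was not tested. The fitted fold was 2.47 (log2 fold change 1.31, standard error 0.16, adjusted p = 0.000627).

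*Smad9*, 1 of the 3 transducers of BMP signals, had 12.4, 14.4 and 26.8 in tdT+ and 15.2, 12.5 and 22.9 in tdTneg bulge cells, against 0.719, 1.13 and 0.0516 in tdT+ and 1.80 and 2.80 in tdTneg CD34+SCA-1+ cells. The lowest of these values, in tdT+ CD34+SCA-1+ replicate 3, was 1 count, and no bulge library came near the CD34+SCA-1+ range. The log2 fold change was -3.84 (standard error 0.59, adjusted p = 0.00193). The other 4 genes of the group were not called, with log2 fold changes of -0.30 for *Smad1*, -0.13 for *Smad5*, 0.09 for *Smad2* and 0.14 for *Smad4*, all with 95% intervals between -1 and 1. Per kilobase of exon, *Smad9* was at 3.23 CPM per kb in bulge cells, against 24.3 for *Smad5* and 19.7 for *Smad1*, which transduce the same signals.

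*Smad6*, an inhibitory SMAD that acts mainly on BMP receptors, had 15.1, 10.5 and 18.99 normalized CPM in tdT+ and 19.1, 21.9 and 23.6 in tdTneg bulge cells, against 2.72, 2.67 and 1.55 in tdT+ and 10.4 and 16.2 in tdTneg CD34+SCA-1+ cells. The 3 lowest libraries were the tdT+ CD34+SCA-1+ ones, while the tdTneg CD34+SCA-1+ libraries overlapped the lower bulge values. It fell by 1.69 on the log2 scale over both tdT groups (adjusted p = 0.00146). *Smad7*, the inhibitory SMAD of TGF-beta and BMP receptors, had 33.8 to 75.5 in bulge and 32.2 to 57.6 in CD34+SCA-1+ libraries and was not called (log2 fold change -0.39, 95% interval -0.94 to 0.16).

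All 4 Id genes fell. *Id1* (ENSMUSG00000042745, chromosome 2, 152736251 to 152737410, GRCm38) had 109, 106 and 241 normalized CPM in tdT+ and 132, 133 and 208 in tdTneg bulge cells, against 26.9, 37.9 and 51.5 in tdT+ and 48.8 and 48.6 in tdTneg CD34+SCA-1+ cells. *Id2* (ENSMUSG00000020644, chromosome 12, 25093799 to 25097140) had 132, 128 and 183 in tdT+ and 162, 128 and 258 in tdTneg bulge cells, against 23.96, 38.5 and 32.3 in tdT+ and 39.8 and 53.8 in tdTneg CD34+SCA-1+ cells. For both genes the highest CD34+SCA-1+ library stayed under the lowest bulge library, by a factor of 2 or more.

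*Id3* (ENSMUSG00000007872, chromosome 4, 136143497 to 136145755) had 161, 164 and 369 in tdT+ and 228, 284 and 379 in tdTneg bulge cells, against 57.5, 71.3 and 66.3 in tdT+ and 92.2 and 115 in tdTneg CD34+SCA-1+ cells. *Id4* (ENSMUSG00000021379, chromosome 13, 48261228 to 48266026) had 77.96, 32.96 and 107 in tdT+ and 147, 101 and 149 in tdTneg bulge cells, against 12.1, 9.30 and 11.1 in tdT+ and 24.8 and 31.6 in tdTneg CD34+SCA-1+ cells. Neither gene overlapped between populations, although the lowest *Id4* bulge value, that of the library labelled tdT+ CD34+ replicate 2, came close to the highest tdTneg CD34+SCA-1+ value.

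The log2 fold changes were -2.49 for *Id4* (standard error 0.29, adjusted p = 0.000502), -2.10 for *Id2* (0.22, adjusted p = 0.000368), -1.83 for *Id1* (0.28, adjusted p = 0.00172) and -1.68 for *Id3* (0.25, adjusted p = 0.00163). Each of these 4 calls was kept when any 1 library was omitted. In the plot of Id genes and inhibitors, *Grem1*, *Nog* and *Fst* are lower in the same population as the Id genes. Per kilobase of exon, *Id3* and *Id1* led the 4 in bulge cells, at 148 and 133 CPM per kb, followed by *Id2* at 67.7 and *Id4* at 26.6.

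**Figure D3:**
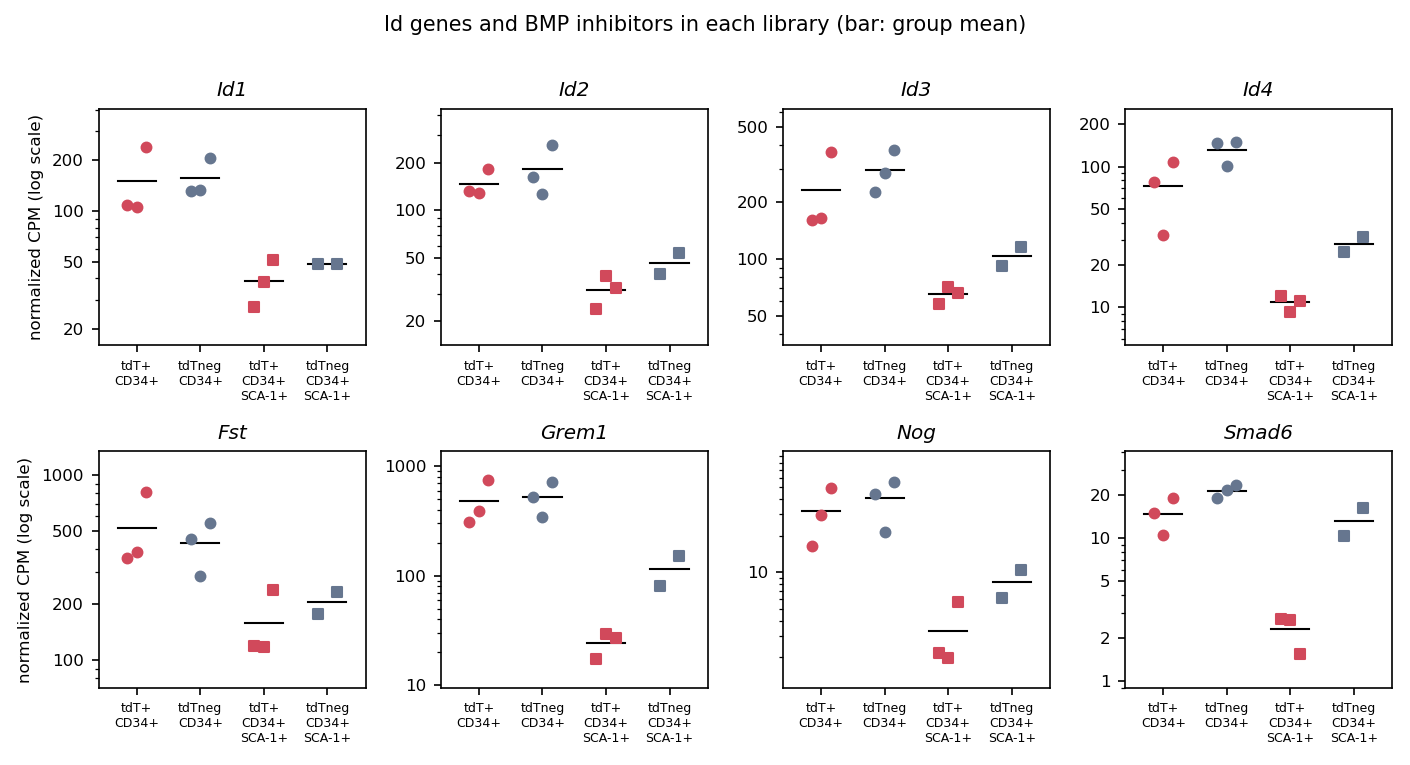
Normalized CPM (log axis) of the 4 Id genes, 3 secreted inhibitors and *Smad6* in each of the 11 libraries, by group (red tdT+, blue-grey tdTneg; circles CD34+, squares CD34+SCA-1+; bar, group mean). Except for *Smad6*, the 5 CD34+SCA-1+ libraries lie below the 6 CD34+ libraries in every panel.

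Because the Id genes moved together, the promoters of those listed in the RefSeq promoter table (GRCm38.p6, 250 bases before to 50 after the transcript start) are shown for *Id2*, *Id3* and *Id4*, at chr12:25096043-25096342 on the minus strand and chr4:136143572-136143871 and chr13:48260866-48261165 on the plus strand. Each is written 5′ to 3′ along the gene, with capitals for the SMAD-binding letters GTCT, or AGAC on the other strand, and for the GC-rich letters GGCGCC, which read the same on both strands.
*Id2*: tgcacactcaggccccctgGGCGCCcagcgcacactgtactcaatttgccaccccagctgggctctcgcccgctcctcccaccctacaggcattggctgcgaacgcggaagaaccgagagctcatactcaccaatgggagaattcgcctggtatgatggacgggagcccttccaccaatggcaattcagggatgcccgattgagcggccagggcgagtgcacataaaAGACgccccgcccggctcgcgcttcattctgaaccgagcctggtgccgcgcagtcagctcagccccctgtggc
*Id3*: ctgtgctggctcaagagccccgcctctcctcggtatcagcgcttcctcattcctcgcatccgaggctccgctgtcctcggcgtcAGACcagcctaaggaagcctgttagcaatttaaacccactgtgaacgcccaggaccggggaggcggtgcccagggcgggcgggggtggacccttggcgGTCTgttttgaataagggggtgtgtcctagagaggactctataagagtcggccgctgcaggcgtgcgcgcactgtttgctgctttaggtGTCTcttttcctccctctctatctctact
*Id4*: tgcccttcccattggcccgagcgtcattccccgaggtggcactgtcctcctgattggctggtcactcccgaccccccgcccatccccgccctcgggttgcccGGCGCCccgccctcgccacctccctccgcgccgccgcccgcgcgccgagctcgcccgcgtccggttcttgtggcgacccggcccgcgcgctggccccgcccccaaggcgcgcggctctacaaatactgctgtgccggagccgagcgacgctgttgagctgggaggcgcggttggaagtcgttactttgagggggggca
The *Id2* window held 1 SMAD-binding match, 23 bases before the start, and 1 GC-rich match, 231 bases before it. In *Id3* there were 3 SMAD-binding matches, 166 and 68 bases before and 21 bases after the start, and in *Id4* none, but 1 GC-rich match 148 bases before the start. The matches did not overlap one another, and the E-box letters CACCTG, searched on both strands, were found in none of the 3 windows. Of all 32851 promoters of this length in the table, 88.0% held a SMAD-binding match, 11.9% a GC-rich match and 20.2% an E-box match, so the SMAD-binding letters by themselves are common. The share of G and C was 63.3% for *Id2*, 60.0% for *Id3* and 73.3% for *Id4*, against a median of 52.7% over all promoters. The shares of promoters with a match were not adjusted for this. These matches are descriptions of the letters and not evidence of binding.

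Of the 44 genes, 17 had a 95% interval of the log2 fold change between populations that lay wholly between -1 and 1, so that for these a change by a factor of 2 or more fell outside the interval. They were 5 receptor genes, *Bmpr2*, *Acvr1*, *Tgfbr1*, *Bmpr1a* and *Acvr1b*, all 4 uncalled receptor-regulated and common SMADs, *Smad7*, *Bmp2*, *Bmp7*, *Tgfb1*, *Fstl3*, *Bambi*, *Bmp1* and *Ltbp4*. Over all genes tested 40.0% had such an interval.

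The same comparison was made within each tdT status. Within tdT+ cells 18 of the 44 genes were called, beside 8.45% of all genes. Of these 1 was higher in CD34+SCA-1+ cells, beside 2.91% of all genes, and 17 were lower, beside 5.54%. *Smad3* was the gene that rose (log2 fold change 1.23, adjusted p = 0.00604). The 4 Id genes fell, with log2 fold changes of -1.97 for *Id1*, -2.23 for *Id2*, -1.83 for *Id3* and -2.74 for *Id4*. The largest falls were those of *Ltbp2* (-5.08, adjusted p = 0.000169), *Smad9* (-4.81, 0.00419) and *Grem1* (-4.32, 0.000519), followed by *Gdf10* (-3.49), *Bmp6* (-3.41), *Nog* (-3.28), *Smad6* (-2.68), *Ltbp1* (-2.46), *Tgfb2* (-2.32), *Fstl1* (-2.14), *Fst* (-1.70), *Ltbp3* (-1.57) and *Inhbb* (-1.38). *Bmp4* was higher in each tdT+ CD34+SCA-1+ library than in each tdT+ bulge library but was not called (log2 fold change 2.29, adjusted p = 0.0646), and *Tgfbr2* missed the fold threshold (0.98, adjusted p = 0.0172).

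The filter, scaling, spread and adjustment of p-values in this comparison drew on all 11 libraries. Several marker sums did not overlap between its 2 groups. They were higher in CD34+SCA-1+ cells for T cells (364 to 939 against 35.8 to 69.6 normalized CPM), suprabasal cells (7060 to 9834 against 1534 to 4028) and basal cells (30856 to 37448 against 16229 to 21589). They were lower for bulge cells (3350 to 5428 against 8372 to 12744), melanocytes (7.48 to 19.2 against 31.4 to 60.9) and the dermal papilla (10.2 to 16.5 against 21.4 to 36.5). Their part in the values above was not tested. Without the library labelled tdT+ CD34+ replicate 2, 22 of the 44 genes were called within tdT+ cells, 4 higher and 18 lower, beside 8.11% of all genes in that fit, and likewise 22 over both tdT groups, beside 11.3%. *Tgfb2* was the least stable of the calls, lost without 9 of the 11 libraries, and kept only without tdT+ bulge replicate 2 or tdTneg bulge replicate 2. It was also lost when only the groups compared were fitted (-2.35, adjusted p = 0.0703), and without tdT+ bulge replicate 3 its log2 fold change went from -2.32 to -1.49 (adjusted p = 0.114). *Inhbb* was lost without tdT+ bulge replicate 1 or tdT+ CD34+SCA-1+ replicate 1 or 3, *Fst* without tdT+ bulge replicate 3 or tdT+ CD34+SCA-1+ replicate 1 or 2, and *Gdf10* without tdT+ CD34+SCA-1+ replicate 1. Over the alternatives the log2 fold change of *Gdf10* ranged from -4.40 to -2.59. That of *Ltbp1*, which kept the call, ranged from -2.74 to -1.74.

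Within tdTneg cells 11 of the 44 genes were called, beside 4.74% of all genes. Of these 4 were higher in CD34+SCA-1+ cells, beside 3.29% of all genes, and 7 were lower, beside 1.45%. *Bmp4* (4.62, adjusted p = 0.0141), *Tgfbr3* (2.05, 0.0161), *Smad3* (1.38, 0.0118) and *Tgfbr2* (1.32, 0.0147) rose. The endothelial markers summed to 1525 and 1681 normalized CPM in these CD34+SCA-1+ libraries, against 30.7 to 97.1 in tdTneg bulge libraries, with *Egfl7* called higher (3.85), as were the receptor genes *Acvrl1* (1.68) and *Eng* (5.28) of the wider pathway list described last. Sums without overlap were also higher for T cells (134 to 143 against 19.6 to 27.8), Langerhans cells and other leukocytes (498 to 962 against 12.01 to 113), suprabasal cells (3003 to 6906 against 482 to 1684) and the dermal papilla (61.1 to 65.1 against 11.6 to 18.7). They were lower for bulge cells (4391 to 5417 against 12881 to 15702), melanocytes (20.3 to 38.7 against 61.1 to 68.0) and the sebaceous gland (576 to 612 against 645 to 1942). The part of these cells in the calls was not tested. *Ltbp2* (-2.52), *Grem1* (-2.19), *Ltbp3* (-1.52) and the 4 Id genes fell, the latter with log2 fold changes from -1.52 for *Id3* to -2.23 for *Id4* and adjusted p-values from 0.0122 to 0.0428. This comparison rests on 2 CD34+SCA-1+ libraries, and its count fell to 3 without tdTneg bulge replicate 3, to 0 without tdTneg CD34+SCA-1+ replicate 1 and to 3 without tdTneg CD34+SCA-1+ replicate 2. The calls over all genes fell in the same fits, from 963 to 216, 55 and 420, or 1.07%, 0.231% and 1.72% of the genes tested. *Id2* and *Ltbp3* lost the call only without tdTneg CD34+SCA-1+ replicate 1. *Grem1* was lost without tdTneg bulge replicate 1 as well, *Id1* also without tdTneg bulge replicate 1 or 2 or tdT+ CD34+SCA-1+ replicate 2, and *Id3* without any 1 of the tdTneg bulge or CD34+SCA-1+ libraries. Without either tdTneg CD34+SCA-1+ library the group holds 1 library, which is assumed to vary like the other groups.

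The comparison of tdT+ with tdTneg bulge cells asks whether the labelled bulge cells differ from their unlabelled neighbours. None of the 44 genes was called by edgeR, beside 0.00985% of all genes, and none by DESeq2, beside 1.63% of all genes. At an unadjusted p under 0.05 there were 9 of the 44, 2 higher and 7 lower in tdT+ cells, beside 8.42% of all genes. The 2 with higher values were *Bmp4* (log2 fold change 1.82, edgeR adjusted p = 0.53), whose highest value is that of the library labelled tdT+ CD34+ replicate 2, and *Bmp7* (0.76, 0.516). The 7 with lower values were *Gdf10* (-1.73), *Inhbb* (-1.07), *Id4* (-0.86), *Fstl1* (-0.85), *Ltbp4* (-0.73), *Ltbp3* (-0.70) and *Smad1* (-0.37), with adjusted p-values from 0.438 to 0.586.

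For 20 of the 44 genes the 95% interval of the difference between tdT+ and tdTneg bulge cells lay between -1 and 1, beside 41.4% of all genes, among them *Id1* (-0.82 to 0.72), *Id2* (-0.92 to 0.31), *Bmpr1a* (-0.51 to 0.37) and *Smad4* (-0.34 to 0.29). For others the intervals were too wide to exclude such a difference, as for *Tgfb2* (-0.27 to 2.51) and *Nog* (-1.52 to 0.81). Without the library labelled tdT+ CD34+ replicate 2 none of the 44 genes was called either, and none of all genes. The summed markers of several cell types did not overlap between the groups. They were lower in tdT+ than in tdTneg bulge libraries for bulge cells (8372 to 12744 against 12881 to 15702 normalized CPM), basal cells (16229 to 21589 against 24052 to 24315) and melanocytes (31.4 to 60.9 against 61.1 to 68.0), and higher for T cells (35.8 to 69.6 against 19.6 to 27.8) and the dermal papilla (21.4 to 36.5 against 11.6 to 18.7), with no single marker called. Their part in the values above was not tested.

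**Figure D4:**
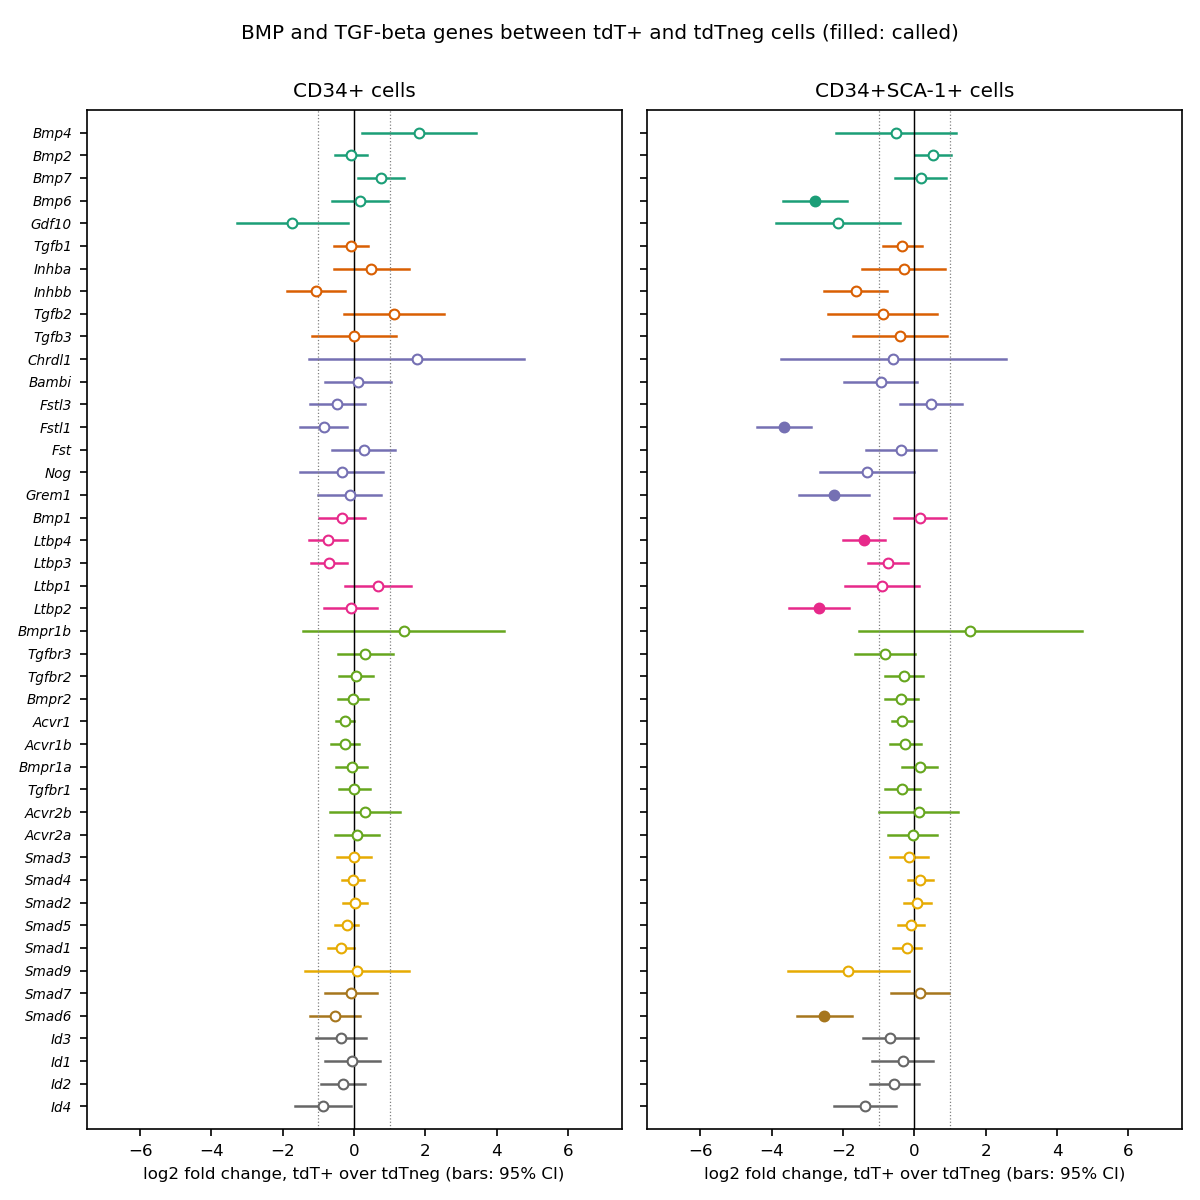
Log2 fold change of each of the 44 genes between tdT+ and tdTneg cells (edgeR) in CD34+ (left) and CD34+SCA-1+ cells (right), with 95% confidence intervals, coloured by role as in the plot of populations; filled points were called. No point is filled in CD34+ cells, and 6 are filled in CD34+SCA-1+ cells, all to the left of -1.

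In CD34+SCA-1+ cells the same question gave 6 of the 44 genes called, all 6 lower in tdT+ cells, beside 2.31% of all genes called and 2.06% called lower. They were the ligand *Bmp6*, the secreted proteins *Fstl1*, *Grem1*, *Ltbp2* and *Ltbp4*, and the inhibitory SMAD *Smad6*. The median log2 fold change was -0.37 over the 44 genes and 0.04 over all genes.

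*Fstl1* (ENSMUSG00000022816, chromosome 16, 37776873 to 37836514) had 8.52, 16.6 and 6.19 normalized CPM in tdT+ and 121 and 142 in tdTneg CD34+SCA-1+ cells, against 43.8, 53.4 and 39.9 in tdT+ and 77.7, 82.2 and 87.4 in tdTneg bulge cells. The tdTneg CD34+SCA-1+ libraries were the highest of all 11 and the tdT+ ones the lowest. The fitted fold between the 2 groups was 12.6 (log2 fold change -3.66, standard error 0.34, adjusted p = 0.000842). The log2 fold change between tdT+ and tdTneg cells was also compared between the populations. With edgeR *Fstl1* was the single gene of the 44 called, beside 0.389% of all genes, with a difference of -2.81 (standard error 0.44, adjusted p = 0.0326). This last call was lost, with adjusted p-values from 0.0527 to 0.161, without the library labelled tdT+ CD34+ replicate 2, any 1 of the 3 tdTneg bulge libraries, tdT+ CD34+SCA-1+ replicate 1 or either tdTneg CD34+SCA-1+ library. The number of such genes was 5 with DESeq2, beside 3.83% of all genes, 3 with RLE size factors, beside 0.576%, 4 with at least 10 counts in every library, beside 1.92%, 4 with at least 1 count in any, beside 1.38%, and 2 with the replicate block, beside 0.379%.

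*Bmp6* (ENSMUSG00000039004, chromosome 13, 38345107 to 38500302), with the values given above, differed by a fitted fold of 6.89 between tdTneg and tdT+ CD34+SCA-1+ cells (log2 fold change -2.78, adjusted p = 0.00715). In bulge cells its difference was 0.17 (95% interval -0.61 to 0.96). The edgeR test between these 2 log2 fold changes gave -2.96 with an adjusted p of 0.0558, which missed the threshold. *Ltbp2* and *Grem1*, whose tdTneg CD34+SCA-1+ values lay between those of tdT+ CD34+SCA-1+ and bulge cells, had log2 fold changes of -2.66 (adjusted p = 0.00632) and -2.26 (0.0282). *Smad6* had -2.52 (adjusted p = 0.0058).

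*Ltbp4*, whose protein binds latent TGF-beta and takes part in elastic fibre assembly, had 371, 216 and 422 in tdT+ and 839 and 943 in tdTneg CD34+SCA-1+ cells, against 582, 557 and 484 in tdT+ and 1059, 897 and 742 in tdTneg bulge cells. In both populations the tdT+ libraries lay below the tdTneg ones, with log2 fold changes of -1.41 in CD34+SCA-1+ (adjusted p = 0.025) and -0.73 in bulge cells (adjusted p = 0.45). When replicate number was blocked, the first of these missed the threshold (-1.43, edgeR adjusted p = 0.0542).

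Other genes leaned the same way without passing the test. *Inhbb* had -1.65 (adjusted p = 0.0616) and *Id4* -1.37 (0.117), while *Id1*, *Id2* and *Id3* had -0.33, -0.57 and -0.67, with 95% intervals that all include 0. In 16 of the 44 genes the interval lay between -1 and 1, beside 34.9% of all genes, among them 7 receptor genes, the 5 SMAD genes *Smad1* to *Smad5*, *Smad7*, *Bmp7*, *Tgfb1* and *Bmp1*.

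The 2 groups also differed in markers of other cells. The summed level of the 5 endothelial markers was 1525 and 1681 normalized CPM in the tdTneg and 29.2 to 60.6 in the tdT+ CD34+SCA-1+ libraries, with all 5 genes higher in the tdTneg libraries and *Egfl7* called (log2 fold change -5.34, adjusted p = 0.0158). Of 8 bulge markers 5 were called lower in tdT+ CD34+SCA-1+ cells, among them *Cd34* (-3.68) and *Lhx2* (-2.69), although the summed bulge markers of both groups overlapped, at 4530.1, 3350 and 5428 normalized CPM in tdT+ and 4391 and 5417 in tdTneg libraries. The T cell markers *Cd3d*, *Cd3e* and *Trac* were called higher, with sums of the list of 364 to 939 in tdT+ against 134 and 143 in tdTneg libraries. Of 5 dermal papilla markers 1 was called lower in tdT+ cells, *Hhip* (-4.50), and their sum was 61.1 and 65.1 in tdTneg against 10.2 to 16.5 in tdT+ CD34+SCA-1+ libraries. No marker of 3 other lists was called, but their sums did not overlap, at 30856 to 37448 in tdT+ against 22439 and 25395 in tdTneg libraries for basal cells, 7060 to 9834 against 6906 and 3003 for suprabasal cells and 7.48 to 19.2 against 38.7 and 20.3 for melanocytes. The part of any of these cell types in the 6 calls was not tested. The library labelled tdT+ CD34+ replicate 2, with endothelial markers summing to 399.5 normalized CPM, had *Fstl1* at 53.4, against 43.8 and 39.9 in the other tdT+ bulge libraries.

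**Figure D5:**
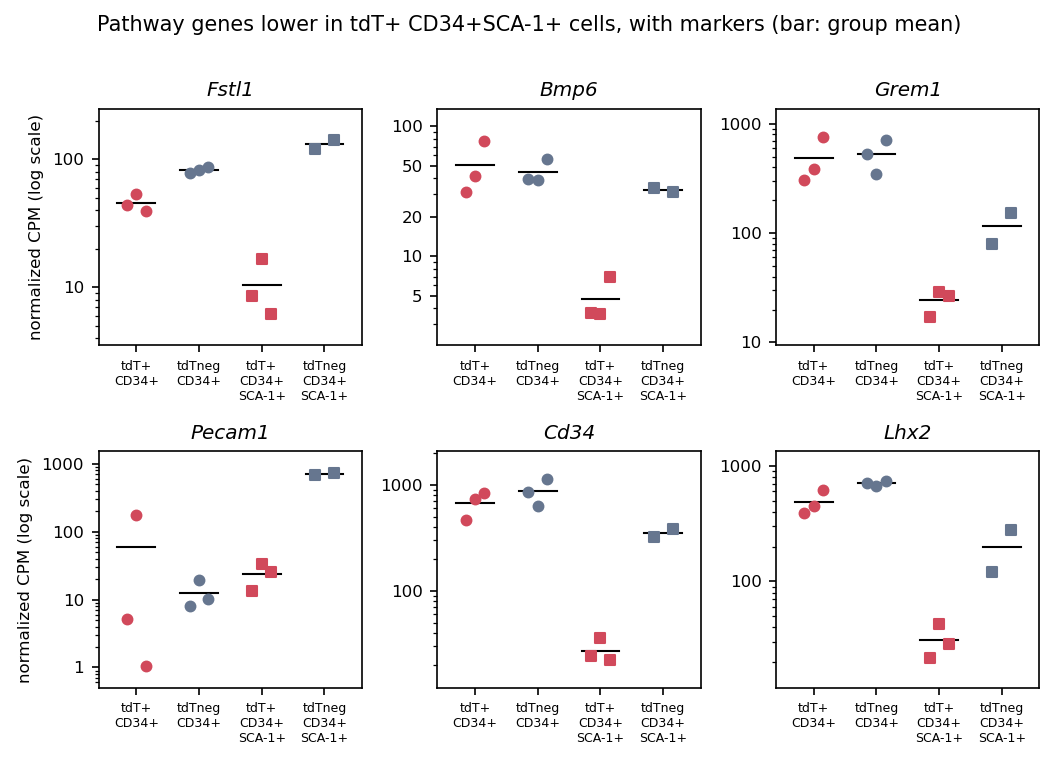
Normalized CPM (log axis) of *Fstl1*, *Bmp6* and *Grem1* with the endothelial gene *Pecam1* and the bulge genes *Cd34* and *Lhx2* in each of the 11 libraries, by group (red tdT+, blue-grey tdTneg; circles CD34+, squares CD34+SCA-1+; bar, group mean). In the upper panels and for *Cd34* and *Lhx2* the 3 tdT+ CD34+SCA-1+ libraries are the lowest, and *Pecam1* is highest in the 2 tdTneg CD34+SCA-1+ libraries.

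These calls depended on the small tdTneg group. Without tdTneg CD34+SCA-1+ replicate 2 the count fell from 6 to 2, *Bmp6* and *Fstl1*, and over all genes from 470 to 97, or 0.397% of those tested. *Smad6* and *Ltbp2* were lost in that fit alone, *Ltbp4* also without tdTneg CD34+SCA-1+ replicate 1 or tdT+ CD34+SCA-1+ replicate 1, and *Grem1* also without any 1 of the tdT+ CD34+SCA-1+ libraries.

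A wider list of 86 other genes of the pathway, of which 76 were tested, was read the same way. Between populations 17 of the 76 were called, or 22.4%, beside 11.6% of all genes. Of these 6 rose in CD34+SCA-1+ cells, beside 4.77% of all genes, and 11 fell, beside 6.79%, and the median log2 fold change was -0.11, against -0.09 over all genes. Without the library labelled tdT+ CD34+ replicate 2 the number called was 15 of 74, 7 higher and 8 lower, beside 11.3% of all genes. Within tdT+ cells 12 of the 76 were called, beside 8.45% of all genes, and within tdTneg cells 6, beside 4.74%. Among the genes called within neither tdT status were *Bmp3*, *Bmp5*, *Lefty1*, *Kcp*, *Tmeff1*, *Tmprss6* and *Cdkn2b*. Among the 9 further ligands tested, *Bmp3*, whose product opposes other BMPs, rose (2.99, adjusted p = 0.00939), with 0.366 to 6.85 normalized CPM in bulge and 7.20 to 33.6 in CD34+SCA-1+ libraries, and *Bmp5* (-5.32), of which 46.7% of exon bases are shared with a gene on the opposite strand, and the inhibitor of nodal *Lefty1* (-1.04) fell. Among the 18 further extracellular modulators tested none rose and 4 fell, namely *Chrd* (chordin, a BMP antagonist, -3.08), *Nbl1* (a member of the DAN family of antagonists, -1.35), *Kcp* (-4.00) and *Tmeff1* (-1.13). *Nbl1* was the most highly counted of these, at 169 to 318 in bulge and 77.1 to 119 in CD34+SCA-1+ libraries.

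Among 14 further target genes 5 rose, among them *Cdkn2b* (1.40), *Cdkn1a* (1.36), *Gata3* (1.23) and *Tsc22d1* (1.11), and 2 fell, *Ccn2* (-2.21) and *Atoh8* (-2.76). *Cdkn2b* and *Cdkn1a*, known TGF-beta targets, encode inhibitors of cyclin-dependent kinases, and *Atoh8* responds to BMPs. *Ccn2*, the connective tissue growth factor gene, of which 23.2% of exon bases are shared with a gene on the opposite strand, had 416, 356 and 571 in tdT+ and 607, 468 and 480.2 in tdTneg bulge cells against 28.00, 69.8 and 33.7 in tdT+ and 177 and 317 in tdTneg CD34+SCA-1+ cells, with no overlap between the populations. *Itgb8*, a subunit of an integrin that activates latent TGF-beta (-1.15), *Neo1*, a co-receptor (-1.17), and *Tmprss6* (-7.05) fell, and of 20 intracellular regulators none was called. *Tmprss6* rested on 3 bulge libraries, tdT+ replicates 1 and 2 and tdTneg replicate 2, at 133, 48.2 and 78.9 normalized CPM, with all other libraries under 1. The sebaceous gland markers summed to 2220.5, 1385 and 1942 in those 3 libraries, against 395 to 801 in the other 3 bulge libraries, and their part in the result was not tested.

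Between tdT+ and tdTneg bulge cells none of the 76 was called by edgeR, and 6 had an unadjusted p under 0.05, a share near the 8.42% of all genes. Between tdT+ and tdTneg CD34+SCA-1+ cells 7 of the 76 were called, all lower in tdT+ cells, beside 2.31% of all genes called and 2.06% called lower. *Acvrl1*, a type I receptor gene known best from endothelial cells, had 9.90, 15.3 and 11.1 in tdT+ and 106 and 100.2 in tdTneg CD34+SCA-1+ cells (log2 fold change -3.09, adjusted p = 0.000776), against 21.4 to 40.7 in bulge libraries. *Bgn*, a matrix proteoglycan gene, had 13.1, 35.2 and 25.2 in tdT+ and 523 and 603 in tdTneg cells (-4.52, adjusted p = 0.00138), and *Tll1*, a protease that cleaves chordin, 1.86, 4.48 and 2.01 in tdT+ and 33.5 and 44.6 in tdTneg cells (-3.82, adjusted p = 0.00221). The other 4 were *Chrd*, *Atoh8*, *Ccn2* and *Fbn2*, with log2 fold changes of -4.79, -4.50, -2.50 and -2.40. For *Acvrl1*, *Bgn* and *Tll1* the tdTneg CD34+SCA-1+ libraries were the highest of all 11. Their log2 fold changes between tdT+ and tdTneg cells also differed between the populations, beside 0.389% of all genes, by -2.92, -3.38 and -3.31 (edgeR adjusted p = 0.0132, 0.047 and 0.0469). With 1 library omitted these calls were lost in 2, 8 and 9 of 11 fits, that of *Acvrl1* without either tdTneg CD34+SCA-1+ library and those of *Bgn* and *Tll1* also without, among others, the library labelled tdT+ CD34+ replicate 2. In these libraries the endothelial markers were highest as well, and their part in the result was not tested.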

How the data were processed

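RNA of sorted EBS cells (isolated with thermolysin, extracted with TRIzol, TruSeq v2 kit, which does not mark strand) was measured in 11 libraries. As deposited, the files hold raw counts per gene, which the authors made with STAR and featureCounts on mm10 with the Ensembl release 96 annotation; the submitters' processing notes also name bcl2fastq 2.20.0.422, FastQC and DESeq2 1.18.1. The strand setting is not given in the sources used here. In each file 1 row outside the Ensembl genes, at most 0.0307% of counts, was kept out of totals and tests. Groups and replicate numbers come from the labels.

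The 44 genes and the wider list were chosen with earlier results of these data known. Counts were fitted in R 4.3.3 with edgeR 4.0.16 (TMM, filterByExpr on the 4 groups, 1 mean per group, glmQLFTest), adjusted over all 20307 genes, with thresholds after the study's methods, which name DESeq2 (here version 1.42.0, an alternative). Tables and figures used Python 3.11.15, pandas 2.3.3 and matplotlib 3.10.9. Values in every library are given for genes called in any of the 6 comparisons, and those of the wider list given by library were chosen after their values were seen; 1 gene of that list is not reported here. Other alternatives were RLE size factors, filters of at least 10 counts in every library or 1 in any, no fold threshold, only the groups compared, the replicate number as a block and omission of each library. Same-numbered libraries were read as 1 pool of mice, from the ages in the labels and the study's description of a replicate. Over 15 such pairs the deviations from group means correlated across genes with a median of 0.08 (-0.42 to 0.59), against -0.02 over 30 other pairs. Tested on simulated data with 200 changed genes, the fit recovered 78.5% between populations (19347 genes), 62% between tdT+ and tdTneg bulge cells (19417 genes) and 55.5% between tdT+ and tdTneg CD34+SCA-1+ cells (19295 genes). The median half-width of the 95% interval of a log2 fold change over the 44 genes was 0.55, 0.72 and 0.80 in these comparisons. The recovered shares apply only to the sizes of change that were simulated. Recovery of changes near the fold threshold was not examined separately, so the shares are not the power to find such changes. Promoters are from RefSeq, which matched 31 of the 44 genes, and transcript start positions there can differ from the Ensembl ones.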

Additional observations from a re-analysis of the deposited data

Results flagged for a closer look

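The log2 fold change of *Fstl1* between tdT+ and tdTneg cells differed between the populations. It was -3.66 in CD34+SCA-1+ and -0.85 in CD34+ bulge cells. The difference was -2.81 (standard error 0.44, edgeR adjusted p = 0.0326 for the interaction), and the call was lost without any 1 of 7 libraries. Endothelial markers summed to 1525 and 1681 normalized CPM in tdTneg and 29.2 to 60.6 in tdT+ CD34+SCA-1+ libraries. Their part in the result was not tested.

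A signal was also present in a row of the files that is not an Ensembl gene and has no description. In 5 of the 6 tdT+ libraries it held 133 to 307 CPM, above the 2.54 to 4.89 of the 5 tdTneg libraries. The exception was the library labelled tdT+ CD34+ replicate 2, with 37 counts, or 2.05 CPM. Groups of 2 or 3 libraries were not tested for a library that stands apart.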

How the results depend on the processing

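Over the 6 comparisons there were 56 called values of the 44 genes, which were recomputed 983 times under the alternatives. Of these, 902 stayed called in the same direction, 81 kept the direction but lost the call, and 0 reversed, and 32 of the 56 were called in every setting. *Gdf10* and *Smad9* have no value under the filter of 10 counts in every library.

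The number called between populations, 20, ranged from 16 to 22 with 1 library omitted and was 23 with DESeq2, beside 11.6%, 4.86% to 12.3% and 16.3% of all genes. Within tdT+ cells it was 18, and 15 to 22 with 1 library omitted, beside 8.45% and 5.72% to 11.3%. Within tdTneg cells it was 11, and 0 to 12 with 1 library omitted, beside 4.74% and 0.231% to 6.39%. Between tdT+ and tdTneg CD34+SCA-1+ cells it was 6, and 2 to 7 with 1 library omitted, beside 2.31% and 0.397% to 3.44%. Between tdT+ and tdTneg bulge cells it was 0 in every setting. Over all genes this comparison called 2, and 0 to 7 with 1 library omitted, 166 of 41302 with at least 1 count in any library and 332 with DESeq2. The number of genes whose log2 fold change between tdT+ and tdTneg cells differed between the 2 populations was 1. It moved to 5 with DESeq2, 3 with RLE size factors, 4 with at least 10 counts in every library and 4 with at least 1 count in any. With 1 library omitted, other than a tdTneg CD34+SCA-1+ one, it ranged from 0 to 3, beside 0.114% to 1.85% of all genes. Over all genes it was 79, and 777 with DESeq2, 117 with RLE size factors, 243 of 12633 with at least 10 counts and 568 of 41302 with at least 1 count. *Fstl1* was among the genes called in each of these settings that called any.

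With the replicate number as a block, read as the shared pool of mice, this last count was 2, beside 77 of all genes, and *Ltbp4* between tdT+ and tdTneg CD34+SCA-1+ cells was the only call lost (-1.43, adjusted p = 0.0542). The block changed no other call of the 56. Depth limits *Chrdl1* and *Bmpr1b*, which had 0 counts in 1 library each and the widest intervals between populations. Omission of a tdTneg CD34+SCA-1+ library leaves 1 in that group, which is assumed to vary like the others.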

Other observations

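The highest value among the 6 CD34+ bulge libraries was in tdT+ replicate 3 for 16 and in tdTneg replicate 3 for 12 of the 44 genes. Among the 5 CD34+SCA-1+ libraries it was in tdTneg replicate 2 for 22 of the 44. In bulge cells *Tgfb2* reached 121 normalized CPM and *Ltbp1* 224 in tdT+ replicate 3, against at most 56.6 and 105 in the other 5 libraries.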
